A study of Mus musculus with 29 samples.

Results

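The windows described here were CpG-dense stretches of gene-associated mouse DNA that were neither unmethylated nor fully methylated in unchallenged lung. Each window of the deposited table spans about 100 CpG cytosines counted over both strands, so a short window is a dense one. Members were the autosomal windows of at most 1500 bp whose mean percentage DNA methylation (%DNAm) over the 14 Sham and PM libraries was at least 10 and under 50, with a value in all 29 libraries. This rule gave 2115 members of 260686 windows (0.811%) and 10.6% of the 20035 CpG-dense autosomal windows with complete values. Of the others, 16498 had a baseline under 10% and 1422 had one of 50% or more. A further 19 CpG-dense windows in the baseline range lacked a value in at least 1 library and were left out.

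Whole-genome methyl-sequencing (WGMS) was performed on lung tissue labelled RML from BALB/c offspring aged 13 weeks that the series describes as female. The Sham (n = 7) and Sham-OVA (n = 7) offspring came from dams given saline intranasally before mating and until weaning, and the PM (n = 7) and PM-OVA (n = 8) offspring from dams given fine particulate matter (PM2.5) over the same period. Sham-OVA and PM-OVA offspring were sensitised to ovalbumin (OVA) with an aluminium adjuvant and challenged with aerosolised OVA, a model of allergic airways disease (AAD), whereas Sham and PM offspring received nebulised saline. The offspring themselves were not given PM2.5, the dam of each library was not given, and the tissue was a whole homogenate, so each value averages over all lung cells and any blood cells within them.

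CpG islands are stretches rich in the dinucleotide CpG that lie over most promoters and are usually free of methylation in every cell. Intermediate methylation in a tissue can mean that the cells differ from one another, that the alleles of a cell differ, as at imprinted loci, or that the window spans the border of an island. Methylation of islands inside genes is a known mark of cell lineage, with blood cells differing from structural cells at many of them.

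To show the DNA on which the OVA differences were largest, 6 stretches of 200 bp are given from leading windows (GRCm38, plus strand, CpG in capitals). They held between 17 and 33 CpG dinucleotides each and were chosen to contain no annotated untranslated exon.
Agap2 (chr10:127079868-127080067): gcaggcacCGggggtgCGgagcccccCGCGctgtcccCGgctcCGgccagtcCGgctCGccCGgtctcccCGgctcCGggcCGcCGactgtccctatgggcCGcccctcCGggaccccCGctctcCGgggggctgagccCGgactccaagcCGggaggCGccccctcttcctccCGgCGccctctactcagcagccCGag
Carmil2 (chr8:105693836-105694035): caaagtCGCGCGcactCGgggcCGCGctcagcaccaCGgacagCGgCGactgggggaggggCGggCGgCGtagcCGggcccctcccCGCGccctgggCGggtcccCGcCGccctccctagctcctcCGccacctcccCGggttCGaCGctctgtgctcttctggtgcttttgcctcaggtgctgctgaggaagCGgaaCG
Gfi1 (chr5:107721519-107721718): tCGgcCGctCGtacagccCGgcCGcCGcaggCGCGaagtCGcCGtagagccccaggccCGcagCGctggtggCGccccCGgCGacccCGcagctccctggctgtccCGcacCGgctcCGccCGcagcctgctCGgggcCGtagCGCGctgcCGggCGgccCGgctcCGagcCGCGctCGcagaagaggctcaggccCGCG
Snx20 (chr8:88627565-88627764): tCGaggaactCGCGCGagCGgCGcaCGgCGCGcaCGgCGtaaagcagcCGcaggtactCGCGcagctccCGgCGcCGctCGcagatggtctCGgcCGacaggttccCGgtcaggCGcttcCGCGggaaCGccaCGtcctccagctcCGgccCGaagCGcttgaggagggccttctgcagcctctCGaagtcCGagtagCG
Fmnl1 (chr11:103192961-103193160): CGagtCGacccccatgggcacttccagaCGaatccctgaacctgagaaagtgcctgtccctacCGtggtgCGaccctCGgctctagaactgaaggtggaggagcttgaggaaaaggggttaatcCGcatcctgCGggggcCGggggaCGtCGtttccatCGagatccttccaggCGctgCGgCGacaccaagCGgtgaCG
Gm28308 (chr6:52204143-52204342): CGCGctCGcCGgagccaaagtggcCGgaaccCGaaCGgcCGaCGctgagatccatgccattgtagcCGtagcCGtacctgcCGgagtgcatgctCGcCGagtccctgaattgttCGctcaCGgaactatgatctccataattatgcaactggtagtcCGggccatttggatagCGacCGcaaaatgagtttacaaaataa

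The imprinted members are illustrated by 3 stretches of the same length, build and strand, with the hexamer TGCCGC in capitals on either strand (GCGGCA when read on the plus strand). TGCCGC is the core that the zinc-finger protein ZFP57 recognises at imprinted loci when methylated.
Peg3 (chr7:6729976-6730175): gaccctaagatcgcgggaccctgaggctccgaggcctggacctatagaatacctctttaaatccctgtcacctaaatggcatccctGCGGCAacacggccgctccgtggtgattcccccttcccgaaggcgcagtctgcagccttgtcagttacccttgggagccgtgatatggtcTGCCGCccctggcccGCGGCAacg
Peg10 (chr6:4748341-4748540): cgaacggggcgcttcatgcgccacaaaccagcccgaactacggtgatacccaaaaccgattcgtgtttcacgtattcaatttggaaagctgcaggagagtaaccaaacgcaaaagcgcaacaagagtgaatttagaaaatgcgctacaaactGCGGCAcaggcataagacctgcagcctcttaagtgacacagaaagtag
Plagl1 (chr10:13060973-13061172): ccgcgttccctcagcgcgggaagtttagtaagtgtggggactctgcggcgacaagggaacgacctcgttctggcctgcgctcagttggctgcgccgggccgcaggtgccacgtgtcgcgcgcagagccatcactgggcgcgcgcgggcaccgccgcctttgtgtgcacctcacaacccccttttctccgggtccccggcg

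Peg3 and Peg10 were windows near the middle of the methylation scale in every group, whereas the Plagl1 stretch, which holds no TGCCGC, came from a window that rose after OVA. Over whole windows TGCCGC was found in 42.8% of members, 44.2% of CpG-dense windows under 10% and 41.1% of those at or above 50%.

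Across libraries, Sham replicate 1 stood apart from the rest before any comparison was made. It had a value in 1224 of 1230 Y-chromosome windows against 29 to 46 in the other 28 libraries, and its X-linked CpG-dense windows had a median of 0.708% against 25 to 33.1%, values that go against the female sex given for it. The members are autosomal. The total counts for OVA in Sham and the PM difference over members are given with and without this library, and the counts by baseline, position and list with it alone. Because the table carries percentages alone, sequencing depth per window is unknown and the number of libraries sets the precision. For markers of lung and blood cells only methylation was available, and the labelled tissue could not be checked by expression.

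Members had a median length of 1211 bp (range 257 to 1500 bp) against 4788 bp for all windows. The median baseline was 17.3%, with a middle range of 13 to 26.5%, and the number fell along the scale, with 1286 members (60.8%) at 10 to 20%, 425 (20.1%) at 20 to 30%, 247 (11.7%) at 30 to 40% and 157 (7.42%) at 40 to 50%. Just inside the thresholds lay Adamtsl5 at 10.003% and Dab2ip at 10.009%, and Casz1 at 49.506% and Ggn at 49.9%. Just outside lay Uck2 and a window labelled Galnt2l, both at 9.994%, and Adcy9 at 50.059% and Hsp25-ps1 at 50.087%. The members carried 1796 gene names, of which 1586 had a single member, although 462 members (21.8%) overlapped more than 1 annotated gene and the table gives only 1 name.

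A transcript start lay within 44.3% of members, a further 11.4% lay within 2000 bp upstream of one, 38.1% overlapped an exon further along the gene and 6.1% were intronic. These shares depended on the member rule. A transcript start lay within 32.2% at a length limit of 1000 bp, 46.9% at 2000 bp and 40.8% for a baseline of 15 to 45%. At 2000 bp 7.87% were intronic. Of CpG-dense windows under 10%, 56.1% held a transcript start, and of those at or above 50%, 9% did. Position moved with the baseline among the members themselves. A transcript start was present in 50.8% of members at 10 to 20% but in 26.1% of those at 40 to 50%, where 52.2% were exonic. Coding sequence was overlapped by 61.7% of members.

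Many members lay between windows of unlike methylation, although CpG islands themselves were not annotated. In 29.8% of members the adjoining window (within 1000 bp) was under 10% on the 1 side and at or above 50% on the other. The same was true of 19% of CpG-dense windows under 10%. In 12.1% of members both adjoining windows were at or above 50%, so that the member was a dip in methylated DNA. The CpG content was lower than in unmethylated dense windows, with a median of 4.1 CpG per 100 bp against 8.73, and equalled that of dense windows at or above 50% (4.1). The median ratio of observed to expected CpG was 0.575 and the median GC content 55.8%. Most members stood alone, with 1799 (85.1%) having no member next to them, and 24 runs held 3 or more.

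OVA challenge was followed by higher %DNAm over the members in both kinds of offspring. The mean over members was 20.7% ± 0.383 (SD, n = 7) in Sham and 22.7% ± 0.36 (n = 7) in Sham-OVA, a difference of 1.92 points. It was 21% ± 0.299 (n = 7) in PM and 22.2% ± 0.325 (n = 8) in PM-OVA, a difference of 1.26 points. Every OVA library lay above every unchallenged library on this measure, with 21.6% the lowest value after OVA and 21.4% the highest without it. The rise was not restricted to the members. CpG-dense windows under 10% went from a mean of 1.5% to 1.84% in Sham and from 1.51% to 1.77% in PM offspring, also without overlap between OVA and unchallenged libraries, and dense windows at or above 50% from 84.3% to 85.5% and from 84.7% to 85.3%. The mean over all windows was 69.1% in Sham and 68.8% in Sham-OVA, and 69.4% in PM and 68.4% in PM-OVA. With each library centred on all windows the differences over members were 2.32 points for Sham and 2.24 points for PM offspring, and as medians over members 1.09 and 0.604 points. As the tissue was bulk, a changed number of cells of a type and a changed methylation level within cells cannot be told apart.

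**Figure D1:**
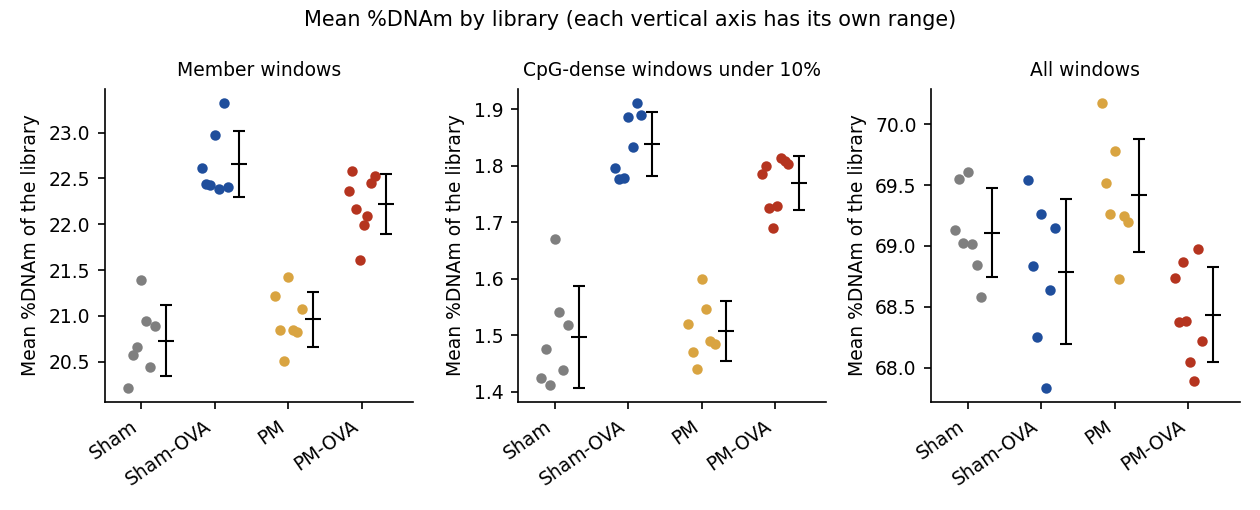
Mean %DNAm of each library over the 2115 members, over CpG-dense windows under 10% and over all windows, with points for libraries and bars for the group mean and SD. Sham-OVA and PM-OVA libraries lay above Sham and PM libraries for the members (from 21.6% against up to 21.4%), and each vertical axis has its own range.

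A window was called a differentially methylated region (DMR) when its adjusted p was under 0.05 by the moderated test of limma, with Benjamini-Hochberg adjustment over 259167 tested windows, and its group means differed by at least 10 points. In Sham offspring OVA gave 159 DMRs among the members (7.52%), beside 0.775% of all tested windows, and 147 of them were higher after OVA and 12 lower (0.479% and 0.296% of all tested windows). In PM offspring there were 131 (6.19%, beside 0.584% of all windows), with 112 higher and 19 lower (0.263% and 0.321% of all tested windows), and centring the libraries changed these to 123 higher and 10 lower. The libraries of challenged and unchallenged mice did not overlap at all in 280 members for Sham (13.2%, beside 8.58% of all tested windows) and in 206 for PM offspring (9.74%, beside 12%). Without Sham replicate 1 the count for Sham offspring was 154, with 141 higher and 13 lower. The median OVA difference over all tested windows was below 0, at -0.414 points for Sham and -1.03 points for PM offspring, whereas over members it was 0.739 and 0.445 points. Since Sham and PM libraries also set the baseline, members were chosen again from the other arm alone, and 155 of 2114 windows chosen by PM libraries were called for OVA in Sham and 130 of 2106 chosen by Sham libraries for OVA in PM.

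Counts in the other classes of window are given for comparison. Of CpG-dense windows under 10%, 6 were called in Sham and 4 in PM offspring, where a rise of 10 points would at least double the level. Of dense windows at or above 50% the shares were 3.94% and 2.6%, and of longer autosomal windows with the same baseline range 3.71% and 2.61%. Among members the share called rose with the baseline, being 2.8%, 8.71%, 19.8% and 23.6% from the lowest to the highest 10-point bin in Sham and 2.57%, 7.53%, 15% and 18.5% in PM offspring. Falls of 10 points were barely possible in the lowest bin. These shares are descriptions of counts and were not compared by a test. The spread between libraries also grew with the baseline, as given below.

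**Figure D2:**
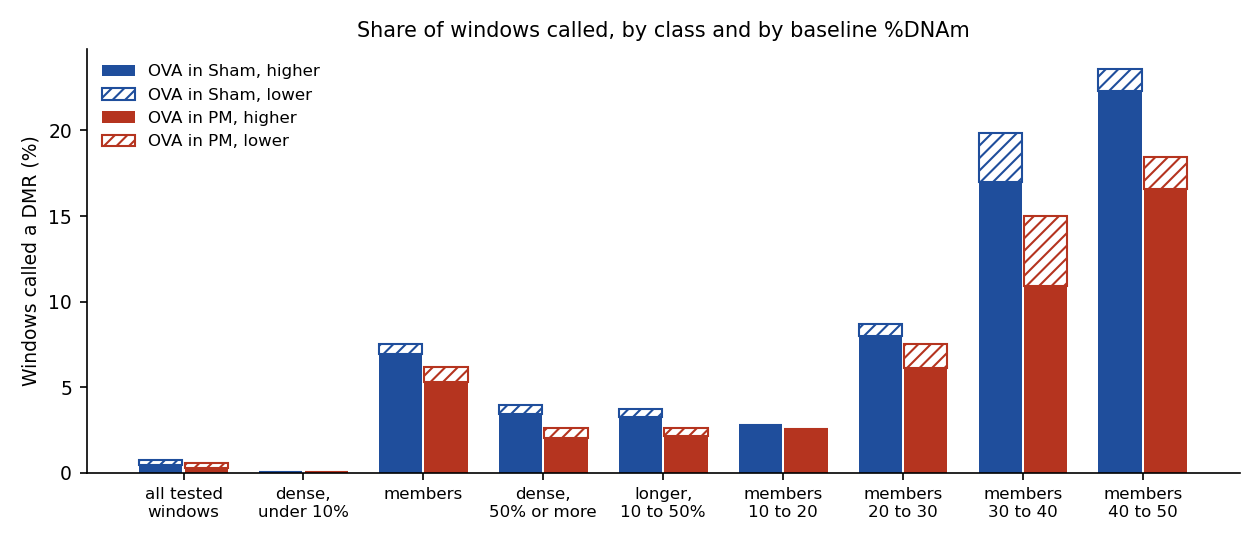
Percentage of windows called a DMR for OVA in Sham (blue) and OVA in PM (red), with rises filled and falls hatched, for all tested windows, the CpG-dense classes, longer windows with the same baseline and members by baseline %DNAm. Members at 40 to 50% had the tallest bars, at 23.6% and 18.5%, and CpG-dense windows under 10% almost none.

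By position, the share called was highest for exonic members, with 12.4% in Sham and 10.2% in PM offspring. The shares were 9.09% and 7.44% upstream of a transcript start, 4.65% and 5.43% in introns, and 3.31% and 2.56% where the window held a transcript start. Exonic members were 31.9% of those at 10 to 20% and 52.2% of those at 40 to 50%. The share called rose with the baseline, so position was not separated from it. Of members whose adjoining windows were both at or above 50%, 12.9% and 9.41% were called, all of them rises. Of those between a window under 10% and one at or above 50%, 3.33% and 3.01% were called. Of the members below the lower quartile of length (965 bp), which are the densest, 16.2% were called in Sham offspring, and of those above the upper quartile (1376 bp) 2.66%.

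Both arms called 109 members, of which 100 were higher and 9 lower in both. They made up 68.6% of the calls in Sham and 83.2% of those in PM offspring, and the arms share no library. Across the 2115 members the OVA differences of the arms had a Pearson r of 0.921 and a Spearman rho of 0.855, as a description over windows that share their libraries within an arm. Of the 50 members called in Sham alone, all moved the same way in PM offspring and 36 had an adjusted p under 0.05 there (as did 44.1% of all tested windows), with a median absolute difference of 7.9 points against 12.3 in their own arm. Of the 22 called in PM alone, all moved the same way in Sham offspring and 15 passed that adjusted p (35.6% of all tested windows). No member had a significant interaction, and the smallest interaction adjusted p among those called in a single arm was 0.502. The 100 members that rose in both arms carried 77 gene names, 77% overlapped coding sequence, and their median distance to a transcript start was 1520 bp.

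**Figure D3:**
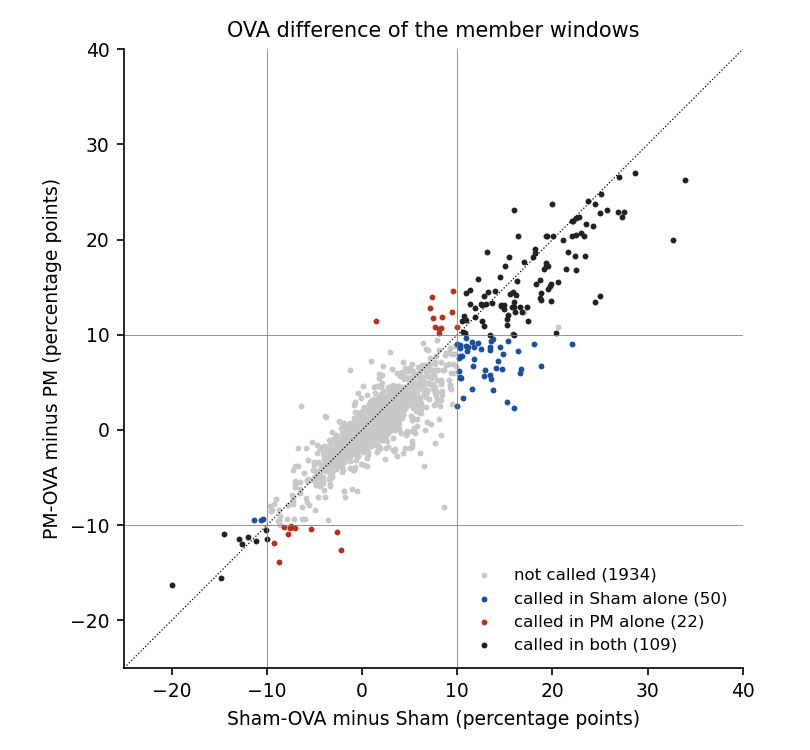
OVA difference of each member in PM offspring against that in Sham offspring, both in percentage points, with grey lines at 10 points and a dotted line of equality. Black points are the 109 members called in both arms, blue the 50 called in Sham alone, red the 22 called in PM alone and grey the rest.

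The largest rises lay in Agap2, which encodes an Arf GTPase-activating protein that also binds phosphoinositide 3-kinase. A window of 544 bp, wholly coding (chr10:127079868-127080411, GRCm38), had 10.1, 14.4 and 17.3% as the lowest, median and highest values in Sham and 34.5, 46.8 and 61.5% in Sham-OVA. In PM the same values were 17, 20.6 and 30.3%, and in PM-OVA 29, 46.9 and 65.3%. The Sham and Sham-OVA libraries did not overlap, while the lowest PM-OVA library fell just below the highest PM library. The difference of means was 34 points in Sham (adjusted p = 5.93e-08) and 26.3 points in PM offspring (adjusted p = 4.33e-06). All 5 Agap2 members rose in both arms, by 23.7 to 34 points and by 20 to 27 points. The 5 Agap2 windows that were not members rose by 5.16 to 18.5 points in Sham and by 4.23 to 17.5 points in PM offspring. Among these, the 3 at or above 50% at baseline differed by 5.16 to 10.7 and by 4.23 to 11.3 points.

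Further members named for the size of their rise lay in Gfi1, Carmil2, Snx20 and Fmnl1. Gfi1 encodes a zinc-finger repressor needed for the development of neutrophils and lymphocytes, and its coding exon window (chr5:107721362-107721744) had 7.75, 14.8 and 24.4% in Sham and 29.7, 42.5 and 56.9% in Sham-OVA. In PM it had 9.53, 15.7 and 19%, and in PM-OVA 24.2, 36 and 52.7%. The OVA libraries lay above the unchallenged ones in both arms, by 27.5 points in Sham (adjusted p = 1.69e-06) and 22.9 points in PM offspring (adjusted p = 4.18e-06). The 6 Gfi1 windows that were not members differed by -0.96 to 21 points in Sham and by -0.542 to 17.8 points in PM offspring, and the 3 unmethylated CpG-dense ones among them by at most 0.96 points in Sham offspring.

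Carmil2 encodes a regulator of actin capping that takes part in T-cell costimulation. Its member (chr8:105693829-105694357), partly coding, had 4.98, 15.4 and 25.3% in Sham, 34.2, 40.4 and 50.4% in Sham-OVA, 15, 17.9 and 24.8% in PM, and 36.8, 45.4 and 51.8% in PM-OVA. No OVA library overlapped its controls, and the differences were 27 points (adjusted p = 2.51e-07) and 26.6 points (adjusted p = 4.82e-07). The windows on each side had baselines of 81.9% and 65.3%, so this was a dip in methylated DNA that became shallower.

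Snx20 encodes a sorting nexin that binds a selectin ligand of leukocytes. Its leading member (chr8:88627554-88627913) had 8.91, 15.1 and 18.2% in Sham and 26.9, 41.6 and 54% in Sham-OVA, and 12.1, 17.1 and 20.6% in PM and 29.4, 38.7 and 51% in PM-OVA. The groups did not overlap, with rises of 27.3 points (adjusted p = 8.25e-08) and 22.4 points (adjusted p = 7.50e-07). Fmnl1, a formin of blood cells, had a member holding a transcript start (chr11:103192627-103193602) with 12, 26.1 and 33.3% in Sham and 40.3, 54.3 and 58.7% in Sham-OVA. In PM the values were 21, 22.5 and 32%, and in PM-OVA 37.6, 47.3 and 54.5%. These libraries did not overlap either, and the rises were 26.9 points (adjusted p = 2.06e-06) and 22.9 points (adjusted p = 1.45e-05). The other windows of both genes differed in either direction. The 3 other Snx20 windows, all with a baseline of 50% or more, differed by -11.3 to 8.12 points in Sham and by -13.4 to 5.2 points in PM offspring, and the 7 Fmnl1 windows with such a baseline by -21 to 11.8 points in Sham and by -20.4 to 8.3 points in PM offspring.

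**Figure D4:**
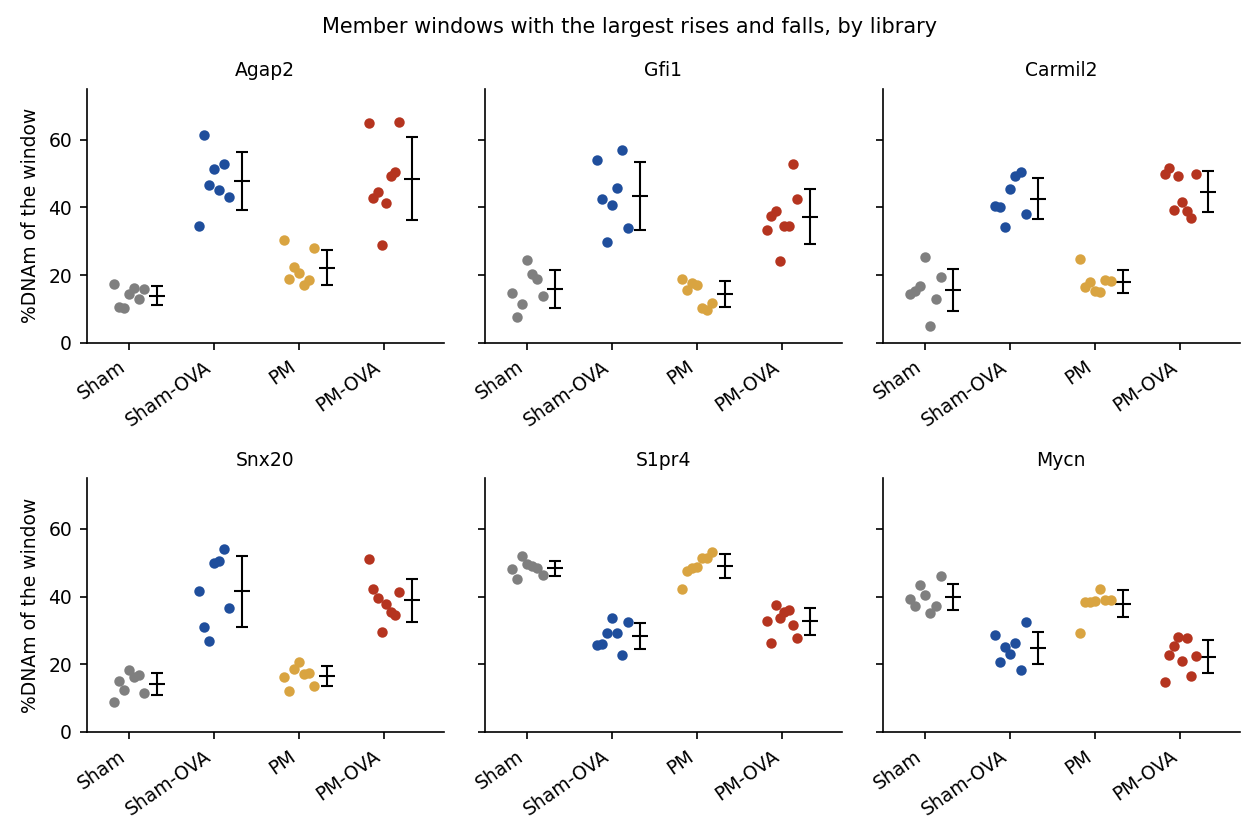
%DNAm of 6 members in each library by group, with the group mean and SD as bars, for the coding Agap2 window of 544 bp, Gfi1, Carmil2 and Snx20, which rose after OVA, and S1pr4 and Mycn, which fell. In S1pr4 the Sham-OVA libraries reached at most 33.6% and the Sham libraries at least 45.1%.

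On the list of blood cell genes, 81 genes had 76 CpG-dense windows tested, and 10 genes had 15 members. Agap2 and Carmil2 were put on the list with earlier results of these data known, so their 6 windows, all called as rises in both arms, add nothing independent. Of the other 9 members, 4 were called in each arm, all of them rises. This stands beside 7.52% and 6.19% of all members and 0.775% and 0.584% of all tested windows. The median difference of the 9 was -1.91 points for Sham and 0.707 points for PM offspring. The 4 called members were Gfi1, a window upstream of Runx3 and the pair in Runx1. Runx1, a transcription factor required for definitive blood formation, rose by 20 points in Sham (adjusted p = 8.13e-07) and 20.4 points in PM offspring (adjusted p = 3.50e-07) in a window holding a transcript start. The window upstream of Runx3, a factor of cytotoxic lymphocytes, rose by 13.6 and 13.4 points.

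The rest of that list had smaller differences. Ikzf1, which encodes the lymphoid factor Ikaros, was lower by 4.29 points in Sham (adjusted p = 9.13e-05) and 5.02 points in PM offspring (adjusted p = 1.14e-05), under the minimum for a DMR. For Gata3, the regulator of type 2 helper cells, the differences were -3.1 points (adjusted p = 0.0286) and -3.4 points (adjusted p = 0.0113), and for Cd247, the zeta chain of the T-cell receptor complex, -2.11 and -0.275 points. Ebf1 differed by -1.91 and 0.707 points and Bcl11b by -2.98 and -2.13 points.

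Other members with large rises were picked after their values were seen, for receptors and kinases of immune cells. Jak3, the kinase of common gamma chain cytokine receptors, rose by 19.8 and 13.6 points in an exonic window and by 19.5 and 14.8 points in a window holding a transcript start. Pik3cd, the leukocyte catalytic subunit of phosphoinositide 3-kinase, rose by 16.3 and 20.4 points. Tnfrsf13b, a B-cell receptor of the tumour necrosis factor family, rose by 19.4 and 17.6 points, and Il12rb1, a chain of the interleukin-12 receptor, by 14.6 and 13 points. Ptgdr2, the prostaglandin D2 receptor of type 2 helper cells and eosinophils, rose by 14.6 and 13.2 points. Because these were selected for their rise, they do not measure how often such genes rose.

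The HoxA cluster held the longest run in which every member was called in both arms. The table names these windows Gm28308, an annotated gene model that spans several HoxA genes, which specify position along the body axis. The member with the largest rise (chr6:52204143-52204716), over Hoxa5, had 14.2, 17.8 and 23.4% in Sham and 35, 40.7 and 56.1% in Sham-OVA, and 11.6, 15.3 and 20% in PM and 35.7, 39.5 and 47.7% in PM-OVA. Neither arm overlapped, and the rises were 25.1 points (adjusted p = 1.71e-08) and 24.8 points (adjusted p = 3.05e-09). All 4 windows of the run rose, by 15.9 to 25.1 points and by 23.1 to 24.8 points. The 17 Gm28308 windows that were not members differed by -0.474 to 29.6 points in Sham and by -0.916 to 25 points in PM offspring. Hoxa2, whose member holds a transcript start, rose by 18.7 and 13.9 points.

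Hoxa7, in the same cluster, moved the other way. Its upstream member had 35.2, 38 and 46% in Sham and 24.5, 29.3 and 36% in Sham-OVA, a fall by 10 points on the difference of means (adjusted p = 0.000586). In PM offspring the values went from 33.7, 38.3 and 45.6% to 23.3, 26.7 and 33.9%, a fall by 11.5 points (adjusted p = 5.96e-05), and the groups overlapped slightly in both arms. Of the members that the table names for a developmental transcription factor family, 70 windows in 49 genes, 6 were called in Sham (5 higher) and 5 in PM offspring (3 higher), which is 8.57% and 7.14% beside 7.52% and 6.19% of all members. This count goes by the name in the table and leaves out the Gm28308 windows. With members that overlap such a gene in GENCODE M21 added, 14 of 79 were called in Sham (17.7%, 13 higher) and 12 in PM offspring (15.2%, 10 higher), and every called window among those added was named Gm28308. Cdx1 rose by 12.6 and 13.1 points, and an exonic Hoxb3 member by 13.4 and 8.74 points, while members in Nkx2-4, Isl2, Hoxc4 and upstream of Tbx4 differed by at most 1.14 points in either arm.

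The largest fall lay near S1pr4, a sphingosine-1-phosphate receptor of lymphoid and myeloid cells. Its member (chr10:81498241-81499423), mostly coding, had 45.1, 48.3 and 52% in Sham and 22.8, 29.3 and 33.6% in Sham-OVA. In PM the values were 42.3, 48.6 and 53.2%, and in PM-OVA 26.3, 33.3 and 37.5%. No library overlapped between challenged and unchallenged mice, and S1pr4 fell by 19.9 points in Sham (adjusted p = 1.07e-08) and by 16.3 points in PM offspring (adjusted p = 1.10e-07).

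Mycn, a transcription factor of the Myc family, had 35.1, 39.2 and 46.2% in Sham and 18.4, 25.2 and 32.5% in Sham-OVA over a partly coding window (chr12:12937250-12938468). In PM it had 29.4, 38.6 and 42.3%, and in PM-OVA 14.8, 22.6 and 28%. Within each arm the OVA libraries lay below their controls, and %DNAm fell by 14.9 points (adjusted p = 2.89e-05) and by 15.6 points (adjusted p = 3.68e-06). The pseudogene Ppp4r1l-ps fell by 14.5 and 10.9 points, Fam110a by 12.9 and 11.4 points, and Gm28863 by 12.6 and 12 points, all called in both arms, although Ppp4r1l-ps lost its call in PM offspring when libraries were centred (-9.93 points). In 8430419K02Rik the values fell by 9.23 points in Sham, under the minimum, and by 11.9 points in PM offspring (adjusted p = 3.87e-06). Fignl2, a member of the fidgetin family, had a run of 4 members, all called as falls in PM offspring. The 1 called in both arms (chr15:101053834-101054215) fell by 12 points in Sham (adjusted p = 0.00235) and 11.2 points in PM offspring (adjusted p = 0.00172). The Fignl2 member with the largest fall in PM offspring, by 13.9 points (adjusted p = 0.00168), differed by -8.68 points in Sham (adjusted p = 0.0611), and by -10.3 points (adjusted p = 0.0365) without Sham replicate 2. Its interaction adjusted p was 0.816.

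A run of 5 members covered Hic1, a transcriptional repressor known from mesenchymal progenitors, with baselines of 16.3 to 37.2%. All 5 were lower after OVA with an adjusted p under 0.05 in both arms (35.6% and 44.1% of all tested windows passed it), by 5.1 to 8.8 points in Sham and by 3.73 to 10.3 points in PM offspring, and 1 reached the minimum for a DMR, in PM offspring. The short list of endothelial and mesenchymal marker genes had 11 members in 5 genes and no DMR in either arm by limma, with 8 and 5 members at an unadjusted p under 0.05 (45% and 51.4% of all tested windows). Of its members, 5 (45.5%) passed the adjusted p in each arm, beside 35.6% and 44.1% of all tested windows, among them Tbx2, a T-box factor of lung mesenchyme, with -5.1 and -4.98 points in its most 3′ member, and Gata6 with 3.2 and 3.73 points. Members in other genes expressed by endothelial cells were called, so the count of that short list does not stand for endothelial genes at large. The supplement to the study lists genes selective for endothelial cells among its own methylation calls, a choice made on these samples and therefore no independent evidence of change. Of 31 members named for those genes, 13 were called in Sham (12 higher) and 14 in PM offspring (10 higher). This stands beside 7.52% and 6.19% of all members and 0.775% and 0.584% of all tested windows. Of the 31, 9 members in 8 genes were called as rises in both arms. Bcl6b, a transcriptional repressor, rose by 19.4 points in Sham (adjusted p = 1.19e-06) and 20.4 points in PM offspring (adjusted p = 2.56e-07). Adcy4, an adenylyl cyclase, rose by 19.3 and 17.2 points, the adaptor gene Sh2d3c by 19.5 and 17.3 points, and the hyaluronidase gene Hyal2 by 18.8 and 13.6 points. A pair of members in Shank3, a scaffold protein, rose by 13.1 and 18.7 points and by 15.6 and 14.3 points, and the others were in Casz1, Ccm2l and Sh2b3. These genes were named after their values were seen. Of 6 members in 4 genes on the corresponding immune list, chosen in the same way, 6 were called in Sham and 4 in PM offspring, all of them rises. These counts stand beside 7.52% and 6.19% of all members and 0.775% and 0.584% of all tested windows. As that list came from calls on these samples, they are no independent evidence either. The only member named for a gene on the list of lung epithelial genes was Napsa, the aspartic protease of alveolar type 2 cells, with 3.21 points (adjusted p = 0.0847) and -0.827 points (adjusted p = 0.707). A further member overlapped Krt7, a keratin of simple epithelia on the same list, but carried the name of its antisense neighbour Gm671, and it rose by 18 points in Sham (adjusted p = 9.36e-06) and 18.2 points in PM offspring (adjusted p = 3.28e-06).

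Imprinted genes are expressed from a single parental allele and carry control regions methylated on the other, so a level near the middle of the scale is what such a region shows in any tissue. The list of imprinted genes had 41 members in 17 of 56 genes, with a median baseline of 41.6%, and 30 of them were at or above 30%. TGCCGC was present in 27 of the 41 (65.9%), beside 42.8% of all members. Over the other lists this share ran from 0% of the 4 protocadherin members to 72.7% of the 11 endothelial and mesenchymal members. The longest run of members was here, with 7 adjoining windows over Gnas and its antisense neighbour, named Gnasas1 in the table, spanning 6794 bp (chr2:174294261-174301054) at 43.7 to 48.9%. None of these 7 was called, and their OVA differences lay between -0.55 and 4.32 points in Sham and between -2.78 and 5.61 points in PM offspring.

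At the other imprinted genes the members did not all behave alike. Peg3, which encodes a zinc-finger protein expressed from the paternal allele, had 39.3, 45.2 and 51.4% in Sham and 38.7, 46.3 and 49.4% in Sham-OVA over its transcript start (chr7:6729846-6730845). In PM and PM-OVA the values were 34.1, 46.1 and 53.9% and 39.4, 44.4 and 49.9%, and all 4 groups overlapped. The differences were -0.534 points (adjusted p = 0.879) and -0.191 points (adjusted p = 0.973), and in the adjoining Peg3 member 5.24 points (adjusted p = 0.129) and -1.49 points. Peg10, a retrotransposon-derived placental gene, had 3 members. The one over its transcript start differed by -7.94 points (adjusted p = 0.141) and -9.35 points (adjusted p = 0.0551), the next by 0.5 and -2.23 points, and the one printed above by 0.165 and 0.732 points. Plagl1, a zinc-finger regulator of growth, differed by 1.78 and -1.8 points in the member at its imprinted transcript start (chr10:13090044-13090957). A member in Grb10, an adaptor that restrains insulin signalling, was 9.24 points higher in Sham (adjusted p = 0.027), under the minimum for a DMR, and differed by 4.45 points in PM offspring (adjusted p = 0.238). The other Grb10 members differed by 4.12 and 4.13 points and by 0.408 and -1.27 points.

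Of the imprinted list 5 members were called in Sham (12.2%, beside 7.52% of all members and 0.775% of all tested windows) and 1 in PM offspring (2.44%, beside 6.19% and 0.584%), all of them rises. The member called in both arms was another Plagl1 window (chr10:13060738-13061587), 9353 bp from the nearest transcript start. It had 22.9, 29.1 and 33.4% in Sham and 35.2, 44.5 and 52.3% in Sham-OVA, and 22.3, 26.4 and 37.1% in PM and 33.2, 46 and 54.8% in PM-OVA. The Sham arm did not overlap and the PM arm did slightly, with rises of 17 points (adjusted p = 4.59e-05) and 17.6 points (adjusted p = 1.10e-05). The others, called in Sham alone, were in Igf2r, the receptor that clears insulin-like growth factor 2 (16 points, then 2.35 points in PM offspring), Peg12 (13.8 and 4.15 points), Zdbf2 (12.8 and 5.66 points) and Cdkn1c, a cell-cycle inhibitor (11.6 and 6.71 points). For none of them was the interaction significant. The Cdkn1c window belonged to a run of 5 members, of which no other was called. The run differed by 0.1 to 11.6 points in Sham and by -2.17 to 6.71 points in PM offspring.

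The imprinted members had a wide spread between libraries. Their within-group SD, averaged over Sham and PM, had a median of 6.12 points (range 0.664 to 9.16 points) beside 1.43 points over all members and 3.86 points over all members at 40 to 50%. The baseline enters both the rule and the SD, and the medians are given without a test. Most imprinted members were also shorter than the median member (1211 bp). Depth per window is unknown, so sampling of reads was not separated from differences between mice. Over all members the median SD was 1.19, 1.74, 2.58 and 3.86 points in the successive baseline bins.

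**Figure D5:**
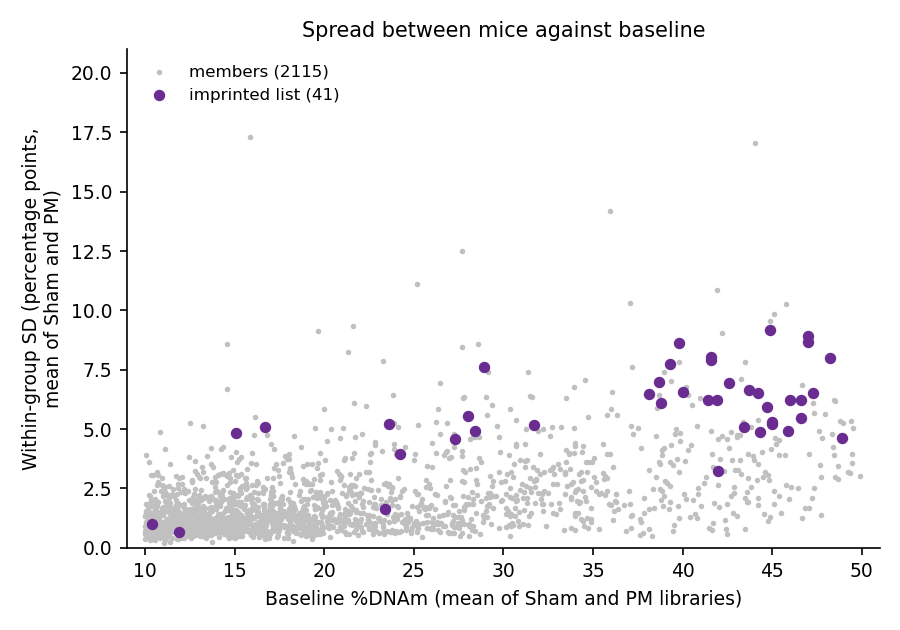
Within-group SD of each member (mean of Sham and PM, in percentage points) against its baseline %DNAm, with the 41 imprinted members in purple. The imprinted members had a median SD of 6.12 points, and all members at 40 to 50% one of 3.86 points.

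A few members differed widely between the libraries of a group. An intronic member of Snd1, which encodes a nuclease of RNA silencing complexes, had 2.85, 5.35 and 53.6% in Sham, 4.52, 42.3 and 53.5% in Sham-OVA, 3.65, 12 and 49.1% in PM, and 2.93, 29.9 and 53.1% in PM-OVA. All groups reached from under 5% to about the middle of the scale, with a within-group SD of 17.3 points, the largest among members, and no OVA difference was significant (adjusted p = 0.0672 and 0.404). An intronic Kcnh6 member, in a potassium channel gene, had an SD of 17 points, with 22.9, 55 and 69.8% in Sham and 21.8, 42 and 66.2% in PM. Mxi1, Shank3 and a window labelled Galnt2l followed, with SDs of 14.2, 12.5 and 11.1 points. The steadiest members had SDs of 0.224 to 0.317 points, among them Bola3, at 17.8 to 18.5% in all Sham libraries.

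Maternal exposure on its own gave no DMR among the members or among all tested windows. For PM against Sham without OVA limma called 0 members, with 128 at an unadjusted p under 0.05, where 5.79% of all tested windows reached that level. For PM-OVA against Sham-OVA it called 0, with 141 at an unadjusted p under 0.05 (5.96% of all windows), and for the interaction 0, with 154 (7.4%). The mean over members differed by 0.231 points between PM and Sham (0.145 points without Sham replicate 1) and by -0.43 points between PM-OVA and Sham-OVA, where the pooled SD was 0.343 points for each. After centring each library these became -0.065 and -0.142 points. The interaction median over members was -0.404 points beside -0.586 points over all tested windows.

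The members with the smallest p in these comparisons had small differences. Fbxo2, the F-box protein of a glycoprotein ubiquitin ligase, had 19.9, 21.2 and 22.4% in Sham and 22.4, 25.4 and 29.5% in PM, a difference of 4.03 points (adjusted p = 0.707). Sike1 had 14.8, 16.2 and 18.7% in Sham-OVA and 13.6, 14.5 and 15.3% in PM-OVA, a difference of -2.04 points (adjusted p = 0.786). In Gm6623 the OVA difference was 1.32 points for Sham and -1.43 points for PM offspring, and the interaction had an adjusted p of 0.496. The libraries of Fbxo2 met near 22.4% and those of Sike1 overlapped.

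The remaining lists were small. Of 5 members in germline genes, which are silenced by promoter methylation in somatic cells, 1 was called in Sham and 0 in PM offspring by limma. By the same rule 0.775% and 0.584% of all tested windows were called. At an unadjusted p under 0.05 there were 4 and 3 of the 5 (45% and 51.4% of all tested windows). The called member was in Meioc, a meiotic gene, with 16.6 points in Sham (adjusted p = 0.000536) and 6.01 points in PM offspring (adjusted p = 0.154). All 4 members that the table names for protocadherins, cell adhesion proteins of the nervous system, carried the name Pcdha1, and none was called by limma in either arm. They differed by 1.82 to 3.73 points in Sham and by 2.03 to 3.91 points in PM offspring, and 2 passed an unadjusted p of 0.05 in each arm, a share of 50% beside 45% and 51.4% of all tested windows. A further 4 members overlapped protocadherin genes under the name Gm42416. Of these 1 was called, in Sham alone, beside 0.775% of all tested windows. It differed by 13.4 points in Sham (adjusted p = 2.69e-05) and by 8.41 points in PM offspring (adjusted p = 0.00222).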

How the data were processed

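WGMS libraries were prepared by the authors with an enzymatic conversion kit and an unmethylated lambda spike-in. According to the submitters' processing notes and published methods, reads were trimmed with Trim Galore, mapped to GRCm38 and called with DRAGEN, and the calls were summarised in SeqMonk. The deposited values are percent methylation per window of CpG cytosines overlapping an Ensembl gene, without normalisation between libraries and without read counts or coverage. The study's own test (edgeR on counts) could therefore not be run.

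Percentages were converted to log2 ratios, methylated over unmethylated, with 1 point added to each. A linear model with 4 groups was fitted to all 29 libraries with limma 3.58.1 (R 4.3.3), 2-sided, with Benjamini-Hochberg adjustment over the 259167 windows having at least 3 values in each group. Libraries of different groups with the same replicate number did not deviate together (r from -0.0718 to 0.0803), nor did those with the same number in the library name, so no block was used. Whether libraries of a group came from separate litters is not given in the sources used here, so p-values measure the spread between these samples. On simulated data of 258503 windows with the OVA in Sham contrast, 88 of 100 windows changed by 12 points and 97 of 100 changed by 20 points were recovered, with 0 false calls. In the real contrast 35.6% of tested windows passed the adjusted p, so the cut-off was looser there. The simulated counts do not carry over to the calls reported.

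Positions came from GENCODE M21 and sequences from GRCm38, read with pysam 0.24.0 in Python 3.11.15. All 260681 windows on named chromosomes started and ended on a CpG. The members, gene lists and tests were chosen with earlier results of these data known. A window was put on a list by the gene name in the table. The endothelial and immune lists of the supplement were added after the values were seen. Named windows were, for each OVA comparison, the 5 called members that rose most and the 5 that fell most (1 per gene), the smallest p of each other comparison, the 5 largest and 5 smallest within-group SDs, the windows at each threshold, up to 8 members of each list and the 3 longest runs. Exceptions are stated. PM-OVA replicates 7 and 8 carry another kind of library name, whose meaning is not given. Alternatives covered the transformation, variance prior, library centring, window filters, thresholds, member rules, a replicate block and leaving out each library.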

Additional observations from a re-analysis of the deposited data

Results flagged for a closer look

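Of 72 groups of values examined for the leading members, 3 held a library far from the rest of its group by Dixon's test, where chance gives about 1 in 20. In Carmil2, PM replicate 1 had 24.8%, whereas the other PM libraries had 15 to 18.7%. In the Agap2 window at chr10:127091453-127092214, PM replicate 3 had 11.7% against 21 to 27.7%. In Mycn, PM replicate 1 had 29.4% against 38.4 to 42.3%. Each of these libraries lay outside the range of the PM-OVA libraries, although the one in Mycn lay within that of the Sham-OVA libraries (18.4 to 32.5%), and the 3 windows were called in both arms when any library was left out, with differences for OVA in PM of 25.6 to 27.7 points in Carmil2, 25.2 to 28.5 points in Agap2 and -17 to -14.5 points in Mycn. The cause was not tested.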

How the results depend on the processing

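The number of DMRs depended on the thresholds and the length limit rather than on the model in the settings tried. A minimum difference of 5 points gave 367 members for OVA in Sham (305 higher, 62 lower) and 301 for OVA in PM (227 higher, 74 lower). No minimum gave 909 (667 higher, 242 lower) and 855 (542 higher, 313 lower), which is 43% and 40.4% of the members beside 35.6% and 44.1% of all tested windows. An adjusted p under 1e-06 gave 43 (42 higher, 1 lower) and 35 (34 higher, 1 lower). A length limit of 1000 bp gave 90 (85 higher, 5 lower) and 68 (59 higher, 9 lower) of fewer members. Centring each library moved the falls for OVA in PM to 10. The difference of the mean over members was 1.09 and 0.604 points as a median over members and 2.32 and 2.24 points after centring. These shifts follow from how each setting is built for the thresholds and the length limit, and for centring and the median the cause was not tested.

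Leaving out each library in turn gave 148 to 165 members for OVA in Sham (139 to 151 higher, 9 to 15 lower) and 120 to 142 for OVA in PM (104 to 117 higher, 14 to 26 lower), and 0 to 0 for both PM comparisons and the interaction. The difference of the mean over members ranged from 1.81 to 2.03 and from 1.19 to 1.35 points, and for PM without and with OVA from 0.145 to 0.34 and from -0.481 to -0.319 points. With the replicate block the counts were 159 and 130, and no pair of libraries with the same replicate number had a correlation over 0.1. The numbers in the library names differ from these in both OVA groups, and none of the 24 pairs they make had a correlation over 0.1 either (-0.0451 to 0.0803). No pairing by either numbering was therefore detected, which does not exclude littermates in different groups. Of 743 values for named windows, Ppp4r1l-ps for OVA in PM fell below the minimum after centring (-9.93 points) and Fignl2 for OVA in Sham passed it without Sham replicate 2 (-10.3 points), and no called value changed sign. The PM without OVA difference of the mean over members, which was within its SD, went from 0.231 to -0.065 points after centring. The depth behind each percentage is unknown, so windows covered by few reads could not be weighted down.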
